A study of Homo sapiens with 6 samples.

Results

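The transcripts described here are the long RNAs that carry small nucleolar RNAs (snoRNAs) or microRNAs inside them, together with a few well known long noncoding RNAs. They were chosen by gene name: SNHG with a number, MIR...HG with a number or code, and GAS5, ZFAS1, DANCR, NORAD, TUG1, CYTOR, PVT1, DLEU2, MALAT1, NEAT1 and OIP5-AS1. The names match 91 of the 58735 genes in the count table. SNHG28 names 2 of these rows. By role, 28 are snoRNA hosts (SNHG genes, GAS5, ZFAS1 and DANCR), 57 are microRNA hosts (MIR...HG genes, DLEU2 and PVT1), 2 are nuclear body RNAs (MALAT1 and NEAT1) and 4 are other long noncoding RNAs (NORAD, TUG1, CYTOR and OIP5-AS1).

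The RNA came from Het1A, an oesophageal epithelial line immortalised with the SV40 large T antigen. In the bile acid group (3 libraries), cells met medium of pH 4.0 with 100 µM mixed bile acids (glycocholic, taurocholic, glycodeoxycholic, glycochenodeoxycholic and deoxycholic acid) for 10 min a day on 5 days. In the control group (3 libraries) cells received 0.1% DMSO, and the labels do not say whether its medium was acidified, so acid and bile acids cannot be told apart. Both groups were kept in 1% serum from 48 h before treatment, and cells were lysed 24 h after exposure 5. The labels call the libraries biological replicates of 1 line without saying how the cultures were separated, so p-values measure the spread between these libraries.

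A snoRNA host gene is spliced, and the snoRNAs are trimmed out of its introns to guide chemical modification of ribosomal RNA. Many snoRNA hosts begin, like ribosomal protein genes, with a run of pyrimidines, and their spliced RNA often has only short reading frames and is broken down by nonsense-mediated decay (NMD) when it is translated. A microRNA host is cut in the nucleus by DROSHA, which frees the hairpin of the microRNA, so the level of a host RNA reflects both its transcription and how fast it is cut or degraded. MALAT1 gathers in nuclear speckles, NEAT1 is the scaffold of paraspeckles, and NORAD binds the RNA-binding proteins of the Pumilio family in the cytoplasm.

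ZFAS1 carries 3 box C/D snoRNAs of 1 family, which are shown because they are what this host makes. In GENCODE 29 the first lies at chr20:49280683-49280772 in an exon of some isoform, the second at chr20:49280319-49280409 and the third at chr20:49278940-49279028 in introns, all on the plus strand of GRCh38. SNORD99 lies in an intron of SNHG12 at chr1:28578749-28578822 on the minus strand. Capitals mark GATGA near the 5′ end and CTGA near the 3′ end, the letters of the C and D boxes, which pair to hold the snoRNA together. Both motifs, searched on the strand of the RNA within 20 bases of its ends, were found in 70.1% of 288 box C/D snoRNA transcripts.
SNORD12: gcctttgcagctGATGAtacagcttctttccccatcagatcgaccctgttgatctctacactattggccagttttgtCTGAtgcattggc
SNORD12B: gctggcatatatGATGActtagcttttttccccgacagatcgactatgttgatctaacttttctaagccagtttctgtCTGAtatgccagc
SNORD12C: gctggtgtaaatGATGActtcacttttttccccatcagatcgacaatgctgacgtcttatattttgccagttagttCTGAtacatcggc
SNORD99: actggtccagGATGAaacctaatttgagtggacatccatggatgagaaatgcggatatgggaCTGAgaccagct

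SNHG8 and SNHG15 each carry a box H/ACA snoRNA, a class that guides pseudouridine formation, in an exon of some isoform. SNORA24 lies at chr4:118279190-118279320 on the plus strand and SNORA9 at chr7:44985378-44985510 on the minus strand. Capitals mark the ACA near the 3′ end, which was searched at a single fixed position. SNORA44 of SNHG12 and SNORA60 of SNHG11 were also searched, had no ACA at that position and are not shown. The share of all box H/ACA snoRNAs with it was not counted.
SNORA24: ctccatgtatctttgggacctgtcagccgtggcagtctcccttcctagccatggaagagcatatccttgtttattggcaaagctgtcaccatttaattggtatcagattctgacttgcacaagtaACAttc
SNORA9: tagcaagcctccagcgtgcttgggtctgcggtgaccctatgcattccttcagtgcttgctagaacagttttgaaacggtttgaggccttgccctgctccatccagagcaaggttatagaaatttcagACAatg

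The start sites of 4 hosts with the letters CTTT and of 2 without are shown because a pyrimidine start is a feature of ribosomal protein genes. All hosts shown are among those named below as lower at an unadjusted p under 0.05 in the edgeR test. They therefore say nothing on a link between these letters and the level. Each window of 41 bases is from RefSeq (GRCh38.p14) on the strand of the gene, with the first transcribed base at position 21, and capitals mark the letters CTTT. In SNHG8 these letters lie wholly before the first transcribed base. The windows lie at chr1:28581853-28581893 (SNHG12, minus strand), chr6:85678713-85678753 (SNHG5, minus), chr4:118278742-118278782 (SNHG8, plus), chr20:49278622-49278662 (ZFAS1, plus), chr20:38446634-38446674 (SNHG11, plus) and chr1:173869025-173869065 (GAS5, minus).
SNHG12: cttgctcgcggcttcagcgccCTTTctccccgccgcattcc
SNHG5: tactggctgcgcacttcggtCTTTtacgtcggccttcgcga
SNHG8: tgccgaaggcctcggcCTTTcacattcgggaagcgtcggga
ZFAS1: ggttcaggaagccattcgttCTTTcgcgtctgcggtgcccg
SNHG11: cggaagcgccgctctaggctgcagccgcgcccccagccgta
GAS5: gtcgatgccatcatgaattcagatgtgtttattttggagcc

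CTTT, searched on the transcribed strand alone from 5 bases before to 10 after the start, was found in 7 of 21 tested snoRNA hosts with a RefSeq start, or 33.3%. The hosts with CTTT that are not shown are SNHG16, SNHG4 and SNHG19. Their log2 fold changes of bile acid over control were 0.12, 0.47 and -1.39, and 0.28, 0.77 and -0.11 without control 2. CTTT was found in 47.7% of 65 ribosomal protein genes and in 6.63% of 27305 promoters. SNHG11 and GAS5 have no CTTT in this window, which says only that these letters are not there. The RefSeq start of GAS5 lies outside the gene as counted, which ends at base 173868882, so this window is not the start of the counted row. The windows of SNHG12, ZFAS1, SNHG8 and SNHG11 lie inside the gene as counted and do not reach its 5′ end. For SNHG12 and ZFAS1 that end is at bases 28583132 and 49278178.

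The mature microRNAs of 4 hosts are shown because the host levels are given below and some of them share a seed. They are RefSeq sequences on GRCh38.p14, and capitals mark the seed, bases 2 to 8, which pairs with target RNAs. The seeds of miR-221-3p and miR-222-3p are the same, GCUACAU, and so are those of miR-100-5p and miR-99a-5p, ACCCGUA. MIR222HG on chromosome X carries the first pair, MIR100HG on chromosome 11 and MIR99AHG on chromosome 21 carry 1 each of the second, and MIR22HG on chromosome 17 carries miR-22-3p.
hsa-miR-22-3p: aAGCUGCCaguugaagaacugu
hsa-miR-221-3p: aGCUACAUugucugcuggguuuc
hsa-miR-222-3p: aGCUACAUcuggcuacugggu
hsa-miR-100-5p: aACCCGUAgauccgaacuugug
hsa-miR-99a-5p: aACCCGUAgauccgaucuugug

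In GENCODE 29 the 91 genes contain 127 snoRNAs, 5 small Cajal body RNAs and 95 microRNAs, where entries that overlap on 1 strand count once, and of these 151 in all lie in introns and 76 in exons of some isoform. The rows of these small RNAs themselves held 668 counts over all 6 libraries, so the values below are those of the host RNAs. No snoRNA, small Cajal body RNA or microRNA entry lay within GAS5 on its strand in this annotation, so none of its snoRNAs is among the 127. Of the 49 hosts and other RNAs that could be tested, 9 share at least 20% of their exonic length with a gene on the other strand, among them ZFAS1 with 26.1%, SNHG6 with 29.3% and SNHG7 with 25.2%. The labels do not state the strand setting of the counting, so reads of these genes and of their partners cannot be told apart.

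Library totals ran from 21006677 to 28497721 counts, and 3 counts, taken as the lowest level to be read, correspond to 0.104 to 0.168 CPM (counts scaled to a common library total), counting error alone considered. Control 2 stood apart. It had counts in 19101 genes against 24174 to 25337 in the other libraries, and in 47 of the 91 genes described here against 56 to 61. In control 2 short genes were relatively high: across 17743 tested genes, which are not independent replicates, its difference from controls 1 and 3 had a Spearman correlation of -0.33 with exonic length, and -0.42 across the 49 tested genes of the set. The same trend was present within the bile acid group: the difference of bile acid 2 from bile acid 1 and 3 had a correlation of -0.35 with length across all tested genes and -0.16 across the 49. Results are given with and without control 2. The count of lower members and the median of the snoRNA hosts are also given without bile acid 2. The labelled cell type was checked against markers. Of 10 epithelial markers listed as squamous or basal, KRT15, KRT13, KRT4 and TP63 stayed under 3 counts in every library. CDH1 (6.50 to 21.01 CPM) and EPCAM (37.9 to 74.7 CPM), which are not particular to squamous cells, were measured in all. The 10 markers summed to 63.1 to 82.4 CPM in controls and 50.6 to 91.0 CPM in bile acid libraries. Most of this sum was EPCAM and CDH1, so it does not show expression of squamous markers. KRT6A reached at most 1.18 CPM and KRT5, KRT14 and SOX2 less. All 3 markers of simple epithelium (KRT8, KRT18 and KRT19) were also measured, with a summed level of 571 to 1459 CPM in controls and 856 to 950 CPM in bile acid libraries. The 7 mesenchymal markers summed to 191 to 360.2 CPM in controls and 317 to 446 CPM in bile acid libraries, and their part in the results was not tested. The leukocyte markers PTPRC, CD3E and LYZ were at 0, and fewer cells of a type and less RNA per cell cannot be told apart in bulk RNA.

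Of the 91 genes, 24 had no count in any library, and 67 were detected. The low-count filter left 49 for testing: 24 snoRNA hosts, 19 microRNA hosts, both nuclear body RNAs and the 4 others. The 18 detected genes that were not tested held 1 to 60 counts each over the 6 libraries. The filter keeps a gene that is high in either group, so counts among the 49 do not describe all 91. MIR205HG and MIR200CHG, hosts of microRNAs known from epithelium and picked here after their values were seen, were among those with no count, which allows up to 0.168 CPM in the shallowest library.

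Per length, the levels differed widely. On the FPKM scale (fragments scaled to gene length and library total, as deposited), NORAD had the highest median level over libraries, 73.0, followed by SNHG1 at 68.9 and SNHG6 at 53.8. The ranges of these neighbours overlapped, from 41.7 to 90.7 for NORAD, from 32.0 to 112 for SNHG1 and from 41.2 to 165 for SNHG6. SNHG8 (43.0), GAS5 (37.8) and ZFAS1 (29.1) came next, and the microRNA host with the highest median FPKM was MIR210HG at 2.48. TUG1 (15.6) and MALAT1 (11.2) lay among the snoRNA hosts, above SNHG12 (10.2) and SNHG15 (6.44), and the microRNA hosts lay below.

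**Figure D1:**
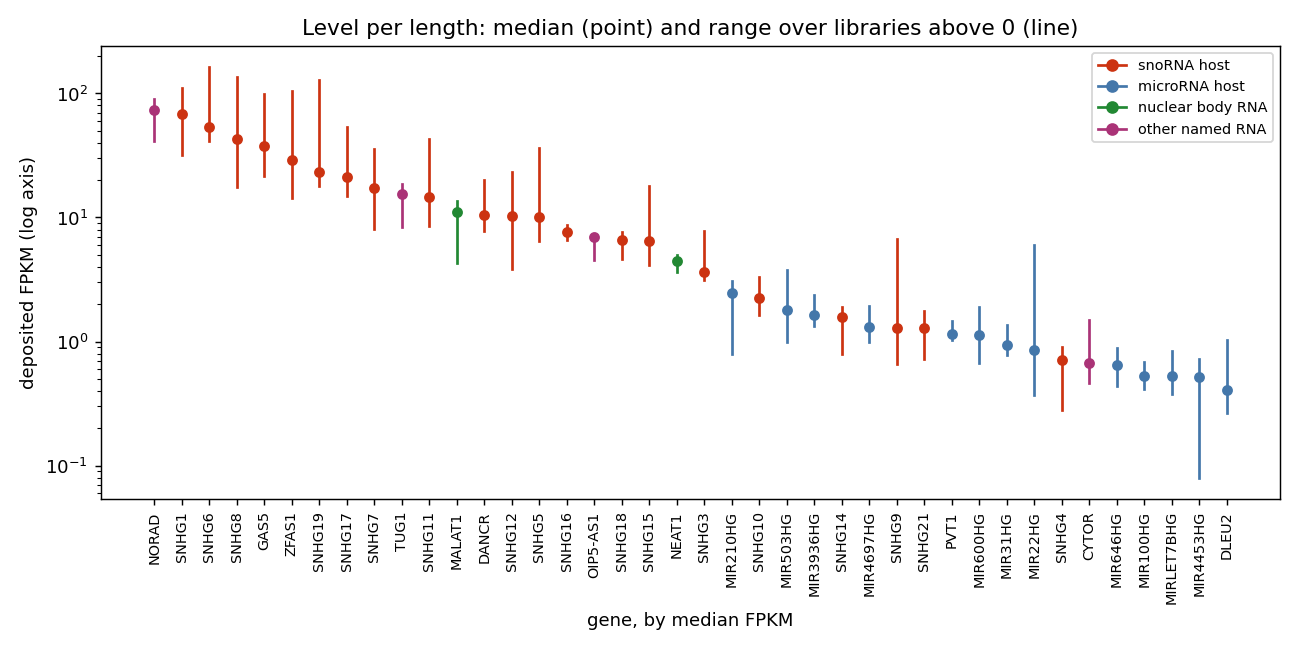
Deposited FPKM (log axis) of the 40 members with the highest median, by gene and coloured by role, with the median as a point and the range over libraries above 0 as a line. NORAD (73.0) and SNHG1 (68.9) lead, MIR210HG (2.48) is the first microRNA host, and the long upper lines of many snoRNA hosts end at control 2.

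No member passed the test in the comparison of bile acid with control. The edgeR quasi-likelihood test with Benjamini-Hochberg adjustment called 0 of the 49, where the share called among all 17743 genes was 0%, and the lowest adjusted p of a member was 0.911. At an unadjusted p under 0.05, 7 members were lower (1.39% of all genes) and 1 was higher (1.93% of all genes). DESeq2 called 0 of the 51 members it gave an adjusted p (0.0716% of all such genes), and limma-voom called 0. Of 58 members in the authors' deposited table, 40 had an adjusted p and 0 of these were under 0.05, against 0.129% of the genes with one, and the lowest was 0.319 for SNHG12. Without control 2, edgeR called 0 of 50 members (0.00547% of all genes) with a lowest adjusted p of 0.433, and DESeq2 called 0 of 48 with an adjusted p (0.861% of all such genes).

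The snoRNA hosts were the group with the lowest values. Of 24 tested, 20 had a negative log2 fold change, with a median of -0.88, against a median of -0.01 over all genes tested. Without control 2, 19 of 24 were negative, with a median of -0.40 against 0.00 over all genes. All 7 members with an unadjusted p under 0.05 and a lower level were snoRNA hosts, namely SNHG12, SNHG15, SNHG11, SNHG8, ZFAS1, SNHG5 and GAS5. The count of such members, of any role, was 2 without bile acid 1 (0.485% of all genes) and 1 without bile acid 3 (0.317%). The median over snoRNA hosts was then -0.72 and -0.76. The same count was 10 without control 1 (2.82%), 11 without control 3 (2.81%) and 9 without bile acid 2 (1.09%). Without bile acid 2 the median over snoRNA hosts was -0.996.

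SNHG12, host of 4 snoRNAs at chr1:28578538-28583132, had 59.5, 116 and 55.9 CPM in controls 1 to 3 and 19.8, 45.3 and 19.3 CPM in bile acid libraries 1 to 3. Every bile acid library lay below every control, although bile acid 2 came near controls 1 and 3. The log2 fold change was -1.46 (SE 0.44, n = 3 against 3, edgeR quasi-likelihood test, unadjusted p = 0.0116, adjusted p = 0.911). Without control 2 it was -1.03 (SE 0.31).

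SNHG8, a short gene at chr4:118278709-118279823, had 51.4, 146 and 46.4 CPM in controls and 19.1, 45.7 and 22.8 CPM in bile acid libraries. Control 2 was 2.99-fold the mean of the other controls, and bile acid 2 lay just under control 3. The log2 fold change was -1.48 (SE 0.53), and -0.74 (SE 0.30) without control 2. SNHG15, at chr7:44983023-44986961, had 37.9, 77.1 and 29.7 CPM in controls and 22.9, 24.7 and 17.6 CPM in bile acid libraries, so here all 3 bile acid libraries were close together and below the controls. Its log2 fold change was -1.15 (SE 0.37), and -0.63 (SE 0.19) without control 2.

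SNHG11, at chr20:38446578-38450921, had 50.4, 142 and 56.2 CPM in controls and 33.8, 45.6 and 28.1 CPM in bile acid libraries. SNHG5, at chr6:85660950-85678748, had 39.3, 120 and 32.8 CPM in controls and 22.8, 32.7 and 21.2 CPM in bile acid libraries. In both genes the groups did not overlap, but in SNHG5 bile acid 2 and control 3 were nearly equal. The log2 fold change was -1.21 (SE 0.43) for SNHG11 and -1.32 (SE 0.50) for SNHG5. Without control 2 the values were -0.56 (SE 0.20) and -0.48 (SE 0.20).

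GAS5, which is known to accumulate when growth stops and translation is blocked, had 180, 420 and 157 CPM in controls and 102, 162 and 92.5 CPM in bile acid libraries. Bile acid 2 lay above control 3, so the groups overlapped. The log2 fold change was -1.08 (SE 0.42), and -0.49 (SE 0.22) without control 2. ZFAS1, at chr20:49278178-49295738, had 106, 274 and 73.4 CPM in controls and 58.4, 78.4 and 38.0 CPM in bile acid libraries. Its groups overlapped in the same way, with a log2 fold change of -1.37 (SE 0.51), and -0.61 (SE 0.26) without control 2.

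The tested snoRNA hosts in which every bile acid library lay below every control were SNHG12, SNHG15, SNHG11, SNHG8 and SNHG5, or 5 of 24, where 4.89% of all genes had this order. None lay above every control (5.29% of all genes). Against controls 1 and 3 alone, 6 lay below (12.9% of all genes) and 3 above (12% of all genes), the latter being SNHG16, SNHG10 and SNHG4.

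**Figure D2:**
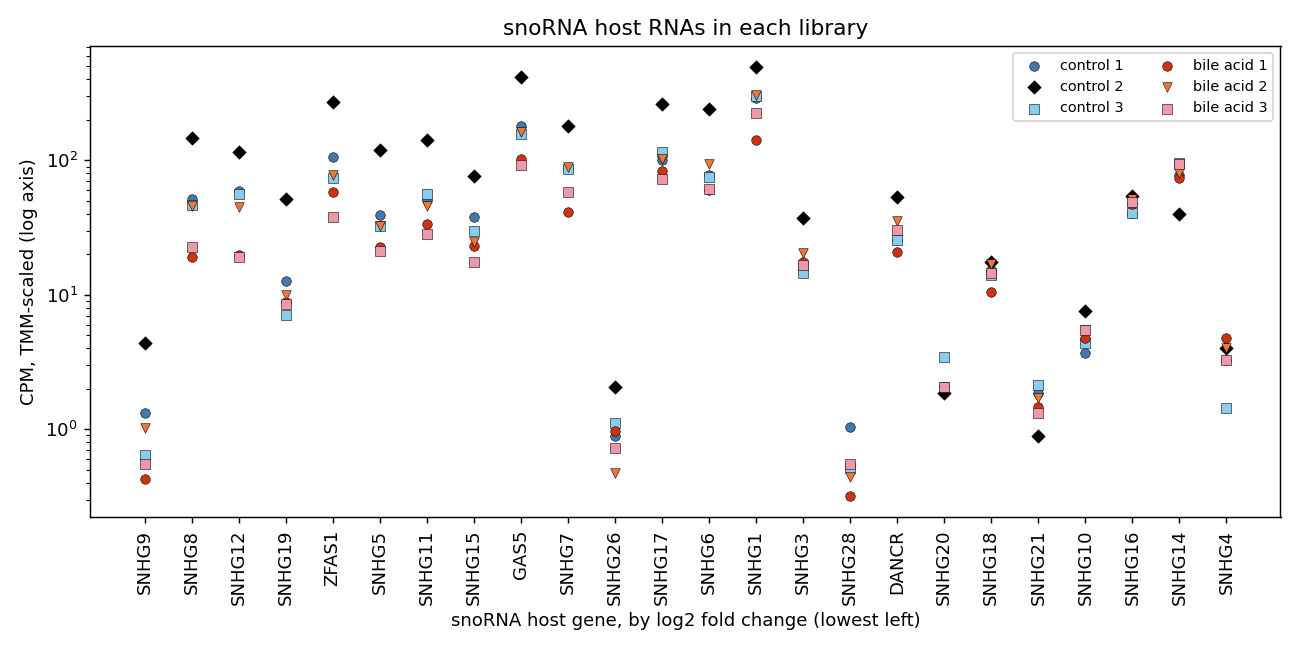
TMM-scaled CPM (log axis) of the 24 tested snoRNA hosts in each of the 6 libraries, ordered by log2 fold change. Control 2 (black diamonds) is the highest library in 19 of the 24 genes, and bile acid 1 or 3 is the lowest in 14.

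Other abundant snoRNA hosts had larger overlap between groups. SNHG1, the host of 7 snoRNAs, had 291, 492 and 301 CPM in controls and 141, 308 and 224 CPM in bile acid libraries, with bile acid 2 level with controls 1 and 3. SNHG17 had 101, 264 and 115 CPM in controls and 83.8, 103 and 72.4 CPM in bile acid libraries. SNHG7 had 87.7, 182 and 86.3 CPM in controls and 41.6, 88.9 and 58.1 CPM in bile acid libraries. In each of the 3 genes bile acid 1 and 3 were lower than bile acid 2. The log2 fold changes were -0.69 (SE 0.34) for SNHG1, -0.89 (SE 0.38) for SNHG17 and -0.91 (SE 0.39) for SNHG7, and without control 2 they were -0.39, -0.31 and -0.46.

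For SNHG6, SNHG19 and SNHG9 the difference also shrank without control 2, as it did in the snoRNA hosts above. In SNHG17 it went from -0.89 to -0.31, and in SNHG5 from -1.32 to -0.48. SNHG6 had 77.6, 242 and 75.9 CPM in controls and 60.3, 94.5 and 61.3 CPM in bile acid libraries, and its log2 fold change moved from -0.87 to -0.08 without control 2. SNHG19, which carries SNORD60 in an intron, had 12.7, 52.0 and 7.07 CPM in controls and 8.81, 9.98 and 8.48 CPM in bile acid libraries, and moved from -1.39 to -0.11. SNHG9 had 1.33, 4.37 and 0.64 CPM in controls and 0.43, 1.02 and 0.56 CPM in bile acid libraries, and moved from -1.64 to -0.56.

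DANCR and SNHG3 had log2 fold changes of opposite sign with and without control 2. DANCR had 25.5, 53.7 and 25.4 CPM in controls and 20.9, 35.3 and 30.4 CPM in bile acid libraries, with -0.27 (SE 0.35) for all libraries and 0.19 (SE 0.21) without control 2. SNHG3 had 16.8, 37.1 and 14.6 CPM in controls and 17.5, 20.4 and 16.7 CPM in bile acid libraries, with -0.32 and 0.22. SNHG16 overlapped between groups, with 40.9, 54.8 and 40.5 CPM in controls and 47.4, 51.4 and 48.7 CPM in bile acid libraries. SNHG14, a very long transcript with 84 snoRNAs, had 78.5, 40.1 and 95.2 CPM in controls and 74.1, 80.3 and 94.0 CPM in bile acid libraries, so here control 2 was the lowest library.

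The remaining snoRNA hosts named here were low. SNHG18 had 15.3, 17.4 and 14.0 CPM in controls and 10.6, 17.1 and 14.4 CPM in bile acid libraries, with overlap. SNHG10 had 3.67, 7.62 and 4.39 CPM in controls and 4.74, 5.52 and 5.49 CPM in bile acid libraries. SNHG4 had 3.27, 4.03 and 1.45 CPM in controls and 4.78, 4.02 and 3.30 CPM in bile acid libraries. The tested row of SNHG28 had 1.04, 0 and 0.51 CPM in controls and 0.32, 0.44 and 0.56 CPM in bile acid libraries, and its other row was at 0.

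Summed over all snoRNA hosts, the level was 1286, 2752 and 1240 CPM in controls and 800.1, 1260 and 882 CPM in bile acid libraries, or 1759 ± 860 against 981 ± 245 (mean ± SD, n = 3). The sum in bile acid 2 lay between controls 1 and 3. Control 2 was the highest library in 19 of 24 tested snoRNA hosts (79.2%, against 36.4% of all genes tested), and bile acid 1 or 3 the lowest in 14 (58.3% against 30.2%). Over snoRNA hosts the median log2 difference of control 2 from controls 1 and 3 was 1.07, and over the other 25 tested members it was -0.35. These snoRNA hosts had a median exonic length of 3222 bases and the other members of 5339, and the part of length in the differences was not tested beyond the removal of the length trend, which left the median of the snoRNA hosts at -0.68.

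**Figure D3:**
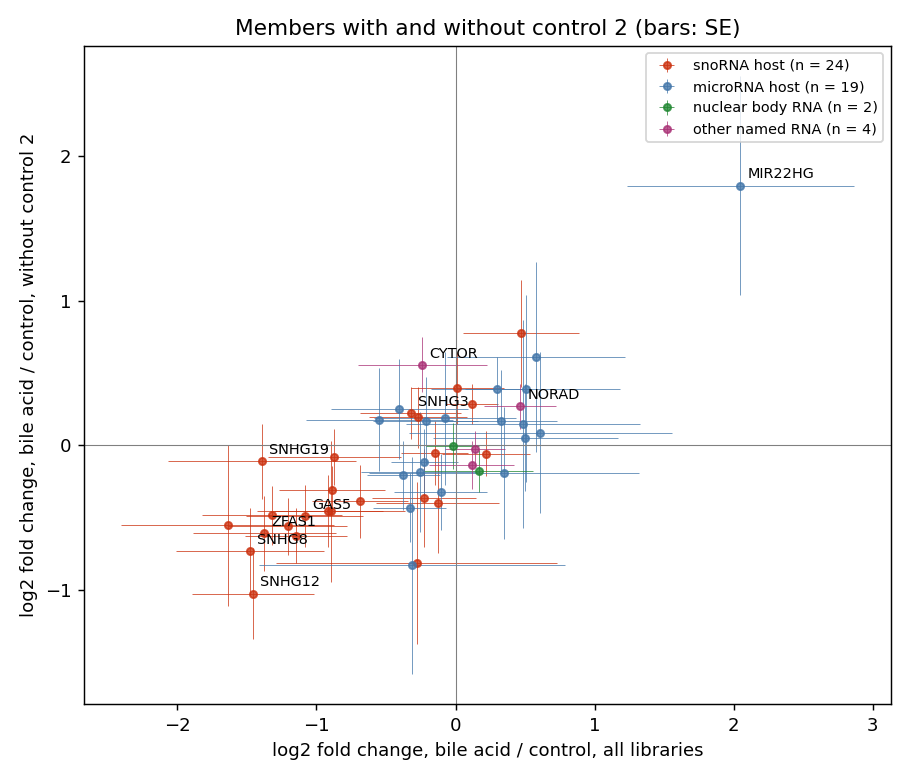
Log2 fold change (bile acid over control) of the 49 tested members with all libraries (x) and without control 2 (y), with bars of 1 SE and colours by role. SNHG12 (-1.46 and -1.03) and GAS5 (-1.08 and -0.49) lie below 0 on both axes, while CYTOR (-0.24 and 0.56) and SNHG3 (-0.32 and 0.22) lie above 0 only on the y axis.

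The microRNA hosts had no common direction. Of 19 tested, 10 were negative and 9 positive, with a median log2 fold change of -0.07, and without control 2 it was 0.16 over 20 tested. MIR22HG, at chr17:1711493-1717174, had 2.23, 1.29 and 3.11 CPM in controls and 21.3, 3.47 and 2.85 CPM in bile acid libraries. A single library, bile acid 1, was high, and the other bile acid libraries were level with control 3. The log2 fold change was 2.05 (SE 0.82, edgeR quasi-likelihood test, unadjusted p = 0.0387, adjusted p = 0.911), and 0.52 without bile acid 1.

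MIR222HG, the host of the microRNAs with the seed GCUACAU, had 4, 0 and 6 counts in controls and 20, 9 and 21 counts in bile acid libraries. These counts are few, and control 2, with 0, is the library with the lowest total. The bile acid libraries lay above every control, an order that 5.29% of all genes tested had. The gene passed the low-count filter only without control 2 and through its level in the bile acid group, so its test is not used. With MIR222HG set aside, edgeR without control 2 had MIR22HG and CYTOR higher at an unadjusted p under 0.05, where 5.02% of all genes were. In the same comparison 7 members were lower, where 2.96% of all genes were.

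MIR100HG, whose introns hold miR-100 and a let-7 gene, had 9.24, 12.2 and 11.6 CPM in controls and 11.02, 15.7 and 13.9 CPM in bile acid libraries, a log2 fold change of 0.30 (SE 0.23), and 0.014 with the length trend removed. MIR99AHG, chosen after its values were seen for the seed it shares, had 0.36, 0 and 0.64 CPM in controls and 0.071, 0.48 and 0.28 CPM in bile acid libraries. Both hosts overlapped between groups. MIR210HG, host of the hypoxia-linked miR-210, had 8.23, 8.23 and 2.13 CPM in controls and 6.06, 4.13 and 7.44 CPM in bile acid libraries. MIR600HG had 8.19, 5.15 and 7.46 CPM in controls and 4.74, 13.3 and 8.10 CPM in bile acid libraries. In MIR210HG and MIR600HG the groups overlapped too, and in MIR600HG a single library, bile acid 2, was high.

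MIR4697HG had 11.3, 7.56 and 8.27 CPM in controls and 6.06, 8.55 and 7.02 CPM in bile acid libraries. MIR3936HG had 7.01, 8.51 and 5.58 CPM in controls and 4.78, 5.99 and 5.46 CPM in bile acid libraries. MIR646HG had 4.31, 2.63 and 5.20 CPM in controls and 4.39, 3.47 and 3.44 CPM in bile acid libraries. All of these groups overlapped.

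MIR503HG had 1.90, 7.45 and 3.62 CPM in controls and 3.64, 2.63 and 3.48 CPM in bile acid libraries. MIRLET7BHG, host of let-7 microRNAs, had 3.38, 5.60 and 2.47 CPM in controls and 3.57, 3.66 and 2.61 CPM in bile acid libraries. DLEU2, host of miR-15a and miR-16, had 1.55, 6.22 and 2.68 CPM in controls and 2.92, 2.12 and 2.05 CPM in bile acid libraries. In all 3 control 2 was the highest library, and the log2 fold change, -0.40, -0.22 and -0.55, was 0.25, 0.17 and 0.18 without it. PVT1, a long RNA next to the oncogene MYC, had 8.99, 9.46 and 6.52 CPM in controls and 6.63, 7.20 and 7.51 CPM in bile acid libraries, with a log2 fold change of -0.23 (SE 0.24).

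The nuclear body RNAs overlapped between groups. NEAT1 had 129.7, 117 and 103 CPM in controls and 97.7, 128 and 119.5 CPM in bile acid libraries, a log2 fold change of -0.02 (SE 0.19), and -0.30 with the length trend removed. MALAT1, 52147 bases from NEAT1 on chromosome 11, had 138, 44.5 and 122 CPM in controls and 106, 107 and 129 CPM in bile acid libraries. Control 2 was the lowest library for MALAT1, and its log2 fold change was 0.17 (SE 0.39), and -0.18 (SE 0.14) without control 2.

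Of the other RNAs, NORAD, TUG1 and OIP5-AS1 were lowest in control 2. NORAD, at chr20:36045622-36050960, had 460.3, 261 and 412 CPM in controls and 555, 443 and 567 CPM in bile acid libraries. The groups overlapped through control 1 and bile acid 2, with a log2 fold change of 0.46 (SE 0.26), and 0.27 (SE 0.16) without control 2. TUG1 had 186, 101 and 216 CPM in controls and 215, 151 and 179 CPM in bile acid libraries. OIP5-AS1 had 105, 68.2 and 103 CPM in controls and 105, 98.3 and 101 CPM in bile acid libraries, and TUG1 and OIP5-AS1 both overlapped, with log2 fold changes of 0.12 and 0.14 that were -0.13 and -0.03 without control 2.

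The transcript of NORAD holds the Pumilio motif TGTANATA 15 times in 5339 bases, searched on the strand of the RNA, or 2.81 per kb. The motif occurs at least once in 15.8% of 4124 lincRNA transcripts of 1000 bases or more, and 0.0485% of them reach the density of NORAD. The first 4 sites are shown with their flanks, because they are what the Pumilio proteins can read, and capitals mark the motif. They begin at bases 761, 1140, 1241 and 1442 of the transcript.
NORAD site a: gaaggcctgTGTATATAatatgaaaa
NORAD site b: tcactactgTGTATATAgttgacaat
NORAD site c: atcacatttTGTAAATAcctttttgt
NORAD site d: acttatctgTGTATATAgtgtacata

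CYTOR, a cytoplasmic RNA at chr2:87454781-87636740 that is known to be raised in several cancers, had 10.2, 31.2 and 9.42 CPM in controls and 15.1, 12.8 and 15.1 CPM in bile acid libraries. Control 2 was 3.18-fold the mean of the other controls and the highest of the 6, and the bile acid libraries lay above controls 1 and 3. Of all genes tested without control 2, 12% had this order against controls 1 and 3. The log2 fold change was -0.24 (SE 0.46) with all libraries and 0.56 (SE 0.19) without control 2 (edgeR quasi-likelihood test, unadjusted p = 0.0147, adjusted p = 0.505), and with all libraries and the length trend removed it was -0.75.

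**Figure D4:**
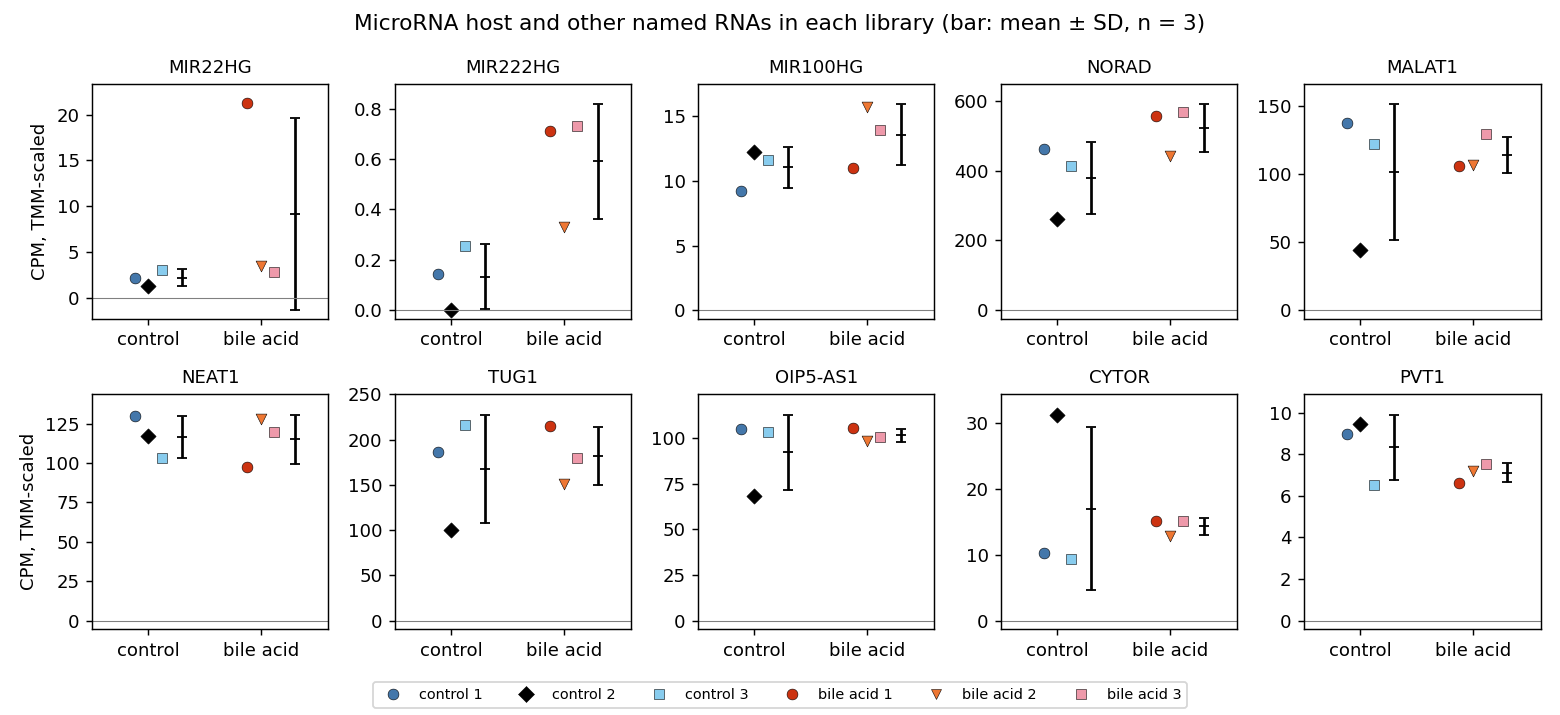
TMM-scaled CPM of 10 microRNA host and other RNAs in each library, with bars at the mean ± SD of 3 libraries per group. MIR22HG is high in bile acid 1 alone (21.3 CPM), control 2 is lowest for NORAD (261 CPM) and MALAT1 (44.5 CPM) and highest for CYTOR (31.2 CPM).

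Genes that act with these RNAs were counted over 6 lists, and edgeR (adjusted p) called 0 of them with or without control 2. At an unadjusted p under 0.05, 2 of 15 NMD factors were lower with all libraries (1.39% of all genes) and no other listed gene was under it. Without control 2, 5 of 15 NMD factors were lower (2.96% of all genes). In the same comparison 1 of 15 NMD factors, 3 of 18 snoRNP proteins, 3 of 10 paraspeckle proteins, 1 of 13 translation genes and 1 of 86 ribosomal protein genes were higher (5.02% of all genes). Of the 86 tested cytosolic ribosomal protein genes, 83 had a negative log2 fold change with all libraries and a median of -0.54, but 79 had a positive one without control 2, with a median of 0.15. Of the 24 snoRNA hosts, 18 were negative both with all libraries and without control 2. The other translation genes with a pyrimidine start were positive in 13 of 13 without control 2, with a median of 0.16. Their median with all libraries was -0.01.

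The proteins that build snoRNPs, such as GAR1 and ZNHIT3, had a median of -0.17, and 14 of 18 were negative, while without control 2 the median was 0.07 and 6 of 18 were negative. GAR1, a box H/ACA protein, had a log2 fold change of -0.74, and -0.14 without control 2. The NMD factors had a median of -0.12 over 15 genes, and UPF3B and SMG5 had the smallest p, with log2 fold changes of -0.61 and -0.55. Without control 2 these were -0.40 and -0.38. The microRNA processing genes had a median of 0.13 over 13 genes, and -0.06 without control 2. The paraspeckle proteins had a median of 0.13 over 10 genes, and 0.23 without control 2, with 10 of 10 positive.

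**Figure D5:**
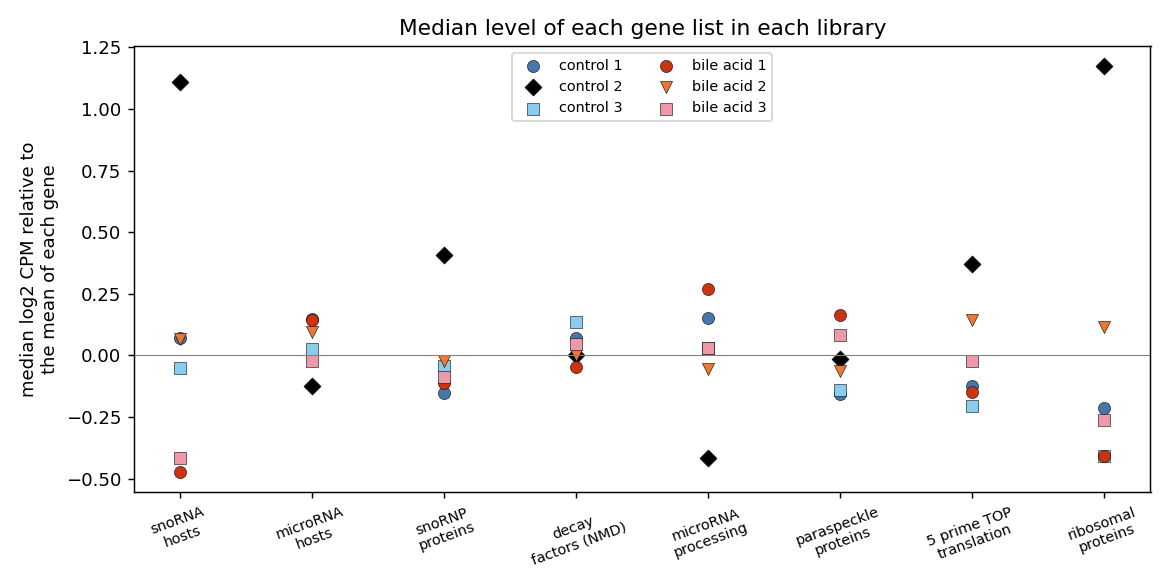
Median log2 CPM of each gene list in each library, relative to the mean of each gene over libraries. Control 2 is high for snoRNA hosts (1.11) and ribosomal proteins (1.17), and bile acid 1 (-0.47) and 3 (-0.42) lie lowest for the snoRNA hosts.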

How the data were processed

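The authors deposited whole-number read counts per gene, FPKM per gene and library, a normalized signal, and a comparison that gives per gene, per the file headers, a log2 fold change, its error, a score, and p-values before and after adjustment. Gene length, another value used here, is also in the deposited count table, and gene coordinates and lengths of all 91 members equal those of GENCODE 29. The submitters' processing notes name HISAT2 2.0.5, featureCounts, DESeq2 and GRCh38 without roles; annotation, strand setting and library selection are not given in the sources used here. The normalized signal of the authors is whole reads over a size factor (100% of recovered values whole to within 0.02), and these reads exceed the count table by 3.84% to 4.20%.

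Counts were tested with edgeR 4.0.16 (R 4.3.3) by its quasi-likelihood test with TMM factors, filterByExpr and Benjamini-Hochberg adjustment at 0.05, over all genes, 3 bile acid against 3 control libraries. CPM are TMM-scaled. DESeq2 1.42.0 and limma 3.58.1 served as alternatives, with other scalings, filters, a replicate block, removal of a length trend (lowess span 0.3), FPKM with pseudocounts 1 and 0.1, recovered reads and each library left out. The code was tested on simulated counts.

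Members and lists were chosen with earlier results of these data known. Values per library are given for the 11 members named singly by the selection, the 12 others with the smallest p, the 8 others with the smallest p without control 2, and the 8 others with the highest CPM.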

Additional observations from a re-analysis of the deposited data

How the results depend on the processing

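No setting called a member. Among all genes edgeR called 0, DESeq2 14 and, in a setting added after the data were seen, DESeq2 without control 2 148, and with 1 library left out edgeR called 0 to 1. The median over the 49 members, -0.23, was -0.062 on log2(FPKM + 1) and -0.37 to -0.11 with 1 library left out. The median over snoRNA hosts was -0.88, and -1.10 to -0.40 with 1 library left out. Under other settings 742 values of named members kept their direction and 53 turned, and the cause was not tested. None turned in SNHG12, SNHG15, SNHG11, SNHG8, ZFAS1, SNHG5 or GAS5. These were grouped by a small p in the same libraries, so their kept direction is no separate support. It is also not particular to them. None turned in SNHG1, SNHG4, SNHG6, SNHG7, SNHG9, SNHG16, SNHG17, SNHG19, MIR22HG, MIR100HG, MIR3936HG, MIR4697HG, NORAD or PVT1.

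The samples share only a replicate number: deviations of same-numbered libraries correlated at 0.31, 0.38 and 0.098, and libraries 3 did not match best with each other. With the replicate block edgeR called 0 genes, the snoRNA host median was -0.74, and only MIR210HG (0.067) and SNHG28 (0.22) turned. With the length trend removed MIR210HG was 0.11 and OIP5-AS1 -0.013, and with the block as well MIR210HG was 0.21, OIP5-AS1 -0.015 and SNHG28 0.15. Removing the length trend alone also moved by over 1.5 times, without a turn, CYTOR (-0.75), NEAT1 (-0.30), SNHG19 (-0.91), SNHG6 (-0.54), MIR503HG (-0.10), DANCR (-0.079), SNHG18 (-0.0027), MIR100HG (0.014), TUG1 (0.014), SNHG14 (0.044), SNHG16 (0.061) and SNHG10 (0.23).

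With limma-voom MIR210HG was 0.13, CYTOR 0.035 and SNHG28 0.56. MIR210HG was 0.0099 on log2(FPKM + 1) and 0.081 on log2(FPKM + 0.1), whether or not a minimum FPKM was set. NEAT1 was 0.0067 with library totals alone and 0.020 without a filter. SNHG10 was -0.0049 with upper-quartile scaling, -0.0041 with a filter of 1 CPM and -0.0020 on recovered reads. With DESeq2 without control 2, MIR210HG was 0.19, MIR503HG 0.25, MIRLET7BHG 0.17, DLEU2 0.18, MALAT1 -0.18, TUG1 -0.13, OIP5-AS1 -0.027, CYTOR 0.56, SNHG14 -0.058, DANCR 0.19 and SNHG3 0.22.

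With 1 library left out in turn, values ran from -0.10 to 0.63 for MIR600HG, -0.48 to 0.20 for MIR210HG, -0.32 to 0.12 for MIR646HG, -0.76 to 0.25 for MIR503HG, -0.44 to 0.17 for MIRLET7BHG, -0.90 to 0.18 for DLEU2 and -0.095 to 0.091 for NEAT1. They ran from -0.18 to 0.45 for MALAT1, -0.13 to 0.35 for TUG1, -0.027 to 0.25 for OIP5-AS1, -0.52 to 0.56 for CYTOR, -0.058 to 0.49 for SNHG14, -0.45 to 0.19 for DANCR, -0.55 to 0.22 for SNHG3, -0.30 to 0.022 for SNHG18, -0.18 to 0.39 for SNHG10 and -0.82 to 0.71 for SNHG28. Members below about 1 CPM rest on few counts, and 3 libraries per group limit what can be detected.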
